A study of Homo sapiens with 8 samples.

Results

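The 48 genes described here act in G2 and mitosis, the last stretch of the cell cycle, and were taken by symbol from the 52576 genes of the deposited table. Each symbol matched a row, and all 48 passed the filter on low values that left 13979 genes for testing. The libraries came from NCI-H2009, an established human lung adenocarcinoma line, and every group carried dCas9-KRAB, a Cas9 that binds without cutting, fused to a repressor domain. The 4 groups of 2 libraries each received e3 guide 1, e3 guide 2, a non-targeting guide with no match in the human genome, or no guide. Both e3 guides recognise 1 enhancer, known from the published study as an enhancer of MYC, and the comparisons ask what repressing it does to RNA levels. The labels do not tell whether replicates are separate cultures, so each p-value measures the spread between libraries, which may be technical.

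Cells enter mitosis when CDK1, bound to a B-type cyclin, is activated. Aurora kinases, kinesins and kinetochore proteins then attach and move the chromosomes, and the anaphase-promoting complex with CDC20 ends the process by marking cyclin B and securin for destruction. Many of these genes are transcribed together late in the cycle, through promoters bound by the DREAM and MMB-FOXM1 complexes at a cell cycle homology element, often beside CCAAT boxes bound by NF-Y. In a growing culture, a bulk level of such RNAs depends on how many cells are in G2 or mitosis and on how much RNA each of them holds, and these could not be told apart.

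MYC, the transcription factor gene assigned to the enhancer, had 42.4 and 43.4 RPKM (reads scaled to gene length and to the depth of the library) with guide 1 and 36.3 and 36.2 RPKM with guide 2. It had 88.9 and 90.1 RPKM with the non-targeting guide and 74.6 and 72.7 RPKM without a guide. Every e3 library lay below every control library, and the log2 change was -1.02 ± 0.10 (SE, limma, adjusted p = 0.00215). The 6 epithelial markers summed to 3037 to 3134 RPKM in e3 libraries and 2654 to 3454 RPKM in controls, while each of the 5 leukocyte markers stayed under 1 RPKM in every library, as did the 3 endothelial markers in the table. The 5 fibroblast markers summed to 5.55 to 6.68 RPKM in e3 libraries and 3.25 to 5.53 RPKM in controls, nearly all of it COL1A1, with COL3A1, DCN and LUM listed at 0, and their part in the results was not tested. The inferred depth was 3868829 to 5745112 reads per library, and the values of the 48 genes rested on 28 to 6217 reads, with a median of 603. On the first principal component, which held 38.9% of the variance over all tested genes, the libraries without a guide stood apart at -36.9 and -38.3, against 5.74 to 18.5 for the other 6 libraries. On the second component the non-targeting libraries stood apart at -25.0 and -22.4, against 4.05 to 14.4 for the other 6 libraries. The counts of called genes, for the 48 and for the lists of other genes, are therefore given against each control group as well.

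The promoters of the genes are shown first because most of those held match the core letters of the element that the family is known for. In AURKB, BUB1, NEK2 and PSRC1 only a CCAAT box was found, and in CKAP2 and TACC3 no match was found. RefSeq promoter windows (GRCh38.p14, from 250 bases before to 50 after the start) were held for 40 of the 48 genes. Below are the 150 bases before the start for 3 genes that fell with the e3 guides (CDC20, MKI67 and NCAPD2), for CCNB2, which fell with guide 2, and for CDK1 and AURKB, which did not pass the test against the pooled controls. Capitals mark the core TTTGAA and its variant, written TTTAAA, and also the CCAAT box, each on either strand, so that a CCAAT box can read ATTGG. The stretches are chr1:43358831-43358980 on the plus strand, chr10:128126424-128126573 on the minus strand, chr12:6493952-6494101 on the plus strand, chr15:59104996-59105145 on the plus strand, chr10:60778328-60778477 on the plus strand and chr17:8210250-8210399 on the minus strand, in the order of the lines. In MKI67 the second TTTGAA overlaps an ATTGG by 1 base. For CDK1 and AURKB the second of the windows held is printed. In the first window the same stretch held CCAAT and TTTAAA for CDK1 and no match for AURKB. G2E3, also called lower, is not printed. Its 150 bases held no match, and its TTTGAA began at base 4 after the start.
CDC20: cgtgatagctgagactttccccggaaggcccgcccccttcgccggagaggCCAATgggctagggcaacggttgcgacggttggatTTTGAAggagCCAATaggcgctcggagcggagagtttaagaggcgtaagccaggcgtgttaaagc
MKI67: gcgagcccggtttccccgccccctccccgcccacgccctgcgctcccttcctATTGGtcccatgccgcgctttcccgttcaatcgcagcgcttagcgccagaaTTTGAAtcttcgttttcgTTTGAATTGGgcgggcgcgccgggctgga
NCAPD2: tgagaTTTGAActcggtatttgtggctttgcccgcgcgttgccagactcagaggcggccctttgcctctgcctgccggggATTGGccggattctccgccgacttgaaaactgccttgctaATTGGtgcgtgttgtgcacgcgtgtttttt
CCNB2: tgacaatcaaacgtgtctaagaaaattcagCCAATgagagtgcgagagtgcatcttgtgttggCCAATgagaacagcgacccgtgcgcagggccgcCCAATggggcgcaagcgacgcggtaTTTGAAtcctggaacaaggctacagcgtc
CDK1: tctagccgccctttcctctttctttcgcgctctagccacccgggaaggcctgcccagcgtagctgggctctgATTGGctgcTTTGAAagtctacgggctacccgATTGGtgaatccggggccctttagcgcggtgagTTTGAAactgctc
AURKB: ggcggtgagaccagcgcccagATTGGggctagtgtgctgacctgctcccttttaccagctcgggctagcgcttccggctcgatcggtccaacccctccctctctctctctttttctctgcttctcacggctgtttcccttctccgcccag

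TTTGAA, the usual core of the cell cycle homology element, was found in 29 of 40 genes with a window, which is 32 of their 48 windows or 66.7%. It stood in 15.2% of all 35116 windows of the same length. TTTAAA, a variant core, stood in 27.1% of the members' windows and 12.2% of all windows, and either core in 79.2% against 24.0%. CCAAT stood in 68.8% of the members' windows and 34.6% of all windows, and TTTGAA with CCAAT in 54.2% against 5.90%. CACGTG, the E-box that MYC with MAX is known to bind, stood in 6.25% of the members' windows and 7.26% of all windows. All motifs were searched on both strands. In the 31 S phase genes with a window, TTTGAA was found in 4 (9.52% of their windows), while CCAAT stood in 66.7% of their windows. In the 44 other G2 and mitosis genes with a window, TTTGAA was found in 24 (49.0% of their windows) and CCAAT stood in 72.5% of their windows. A match is a string of letters and not a measured binding site.

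**Figure D1:**
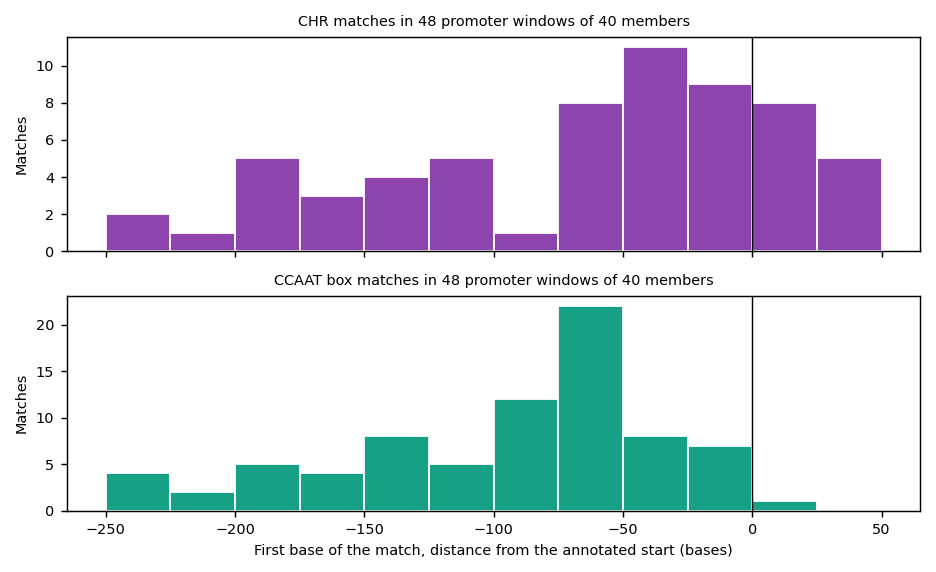
Positions of motif matches relative to the annotated start in the promoter windows of the members (x axis, bases from the start, with negative values before it; y axis, number of matches). Of 62 matches to either core, 28 began within the 75 bases before the start, and of 78 CCAAT matches, 34 began between 100 and 51 bases before it. Matches were counted in each window, so a site in overlapping windows of the same gene, as in TMPO and AURKB, was counted more than once.

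The 29 genes with TTTGAA had a median log2 change of -0.17 in e3 libraries against controls, with 4 called, and the 11 genes with a window but without it had a median of -0.25, with 0 called. The 8 genes with no window held had a median of -0.26, with 2 called. Over all tested genes, 2.58% were called lower. These medians and counts are descriptions without a test between the sets.

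RNA levels of 6 of the 48 genes fell in the 4 e3 libraries against the 4 control libraries, and none rose (limma on log2(RPKM + 1), called at a Benjamini-Hochberg adjusted p under 0.05 over all tested genes). Over all tested genes, 2.58% were called lower and 2.63% higher, and 3.66% of the 9318 genes at or above the lowest mean level of the 48 were called lower. The genes called lower were CDC20, MKI67, AURKA, NCAPD2, G2E3 and BIRC5, each at 0.744 to 0.826 times the control level on the log2(RPKM + 1) scale. At an unadjusted p under 0.05, 26 of the 48 passed, beside 3102 of all 13979 tested genes. The log2 change was negative for 44 of 48 genes (91.7%), against 53.4% of all tested genes, and its median was -0.21 (quartiles -0.29 and -0.13), against -0.02 over all tested genes. In 20 of the 48 (41.7%) every e3 library lay below every control library, as did 7.51% of all tested genes, and in 0 every e3 library lay above every control, against 7.58%. The count of 6 called genes was not stable, with 0 called without either guide 2 library (22 at an unadjusted p under 0.05 each) or without replicate 2 of no guide (26 at an unadjusted p under 0.05). It was 1 without replicate 1 of no guide, 2 without replicate 1 of guide 1 or replicate 2 of the non-targeting guide, 3 without replicate 1 of the non-targeting guide and 4 without replicate 2 of guide 1. By gene, the call was lost in 8 of the 8 settings that leave out 1 library for G2E3, in 7 each for AURKA, NCAPD2 and BIRC5, in 6 for MKI67 and in 3 for CDC20, with no change of direction. The count was 1 with the replicate number as a block, 0 when the correlation within groups was estimated, 0 on group means and 22 in a model with 4 groups, in which the spread holds no difference between guides or between controls.

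**Figure D2:**
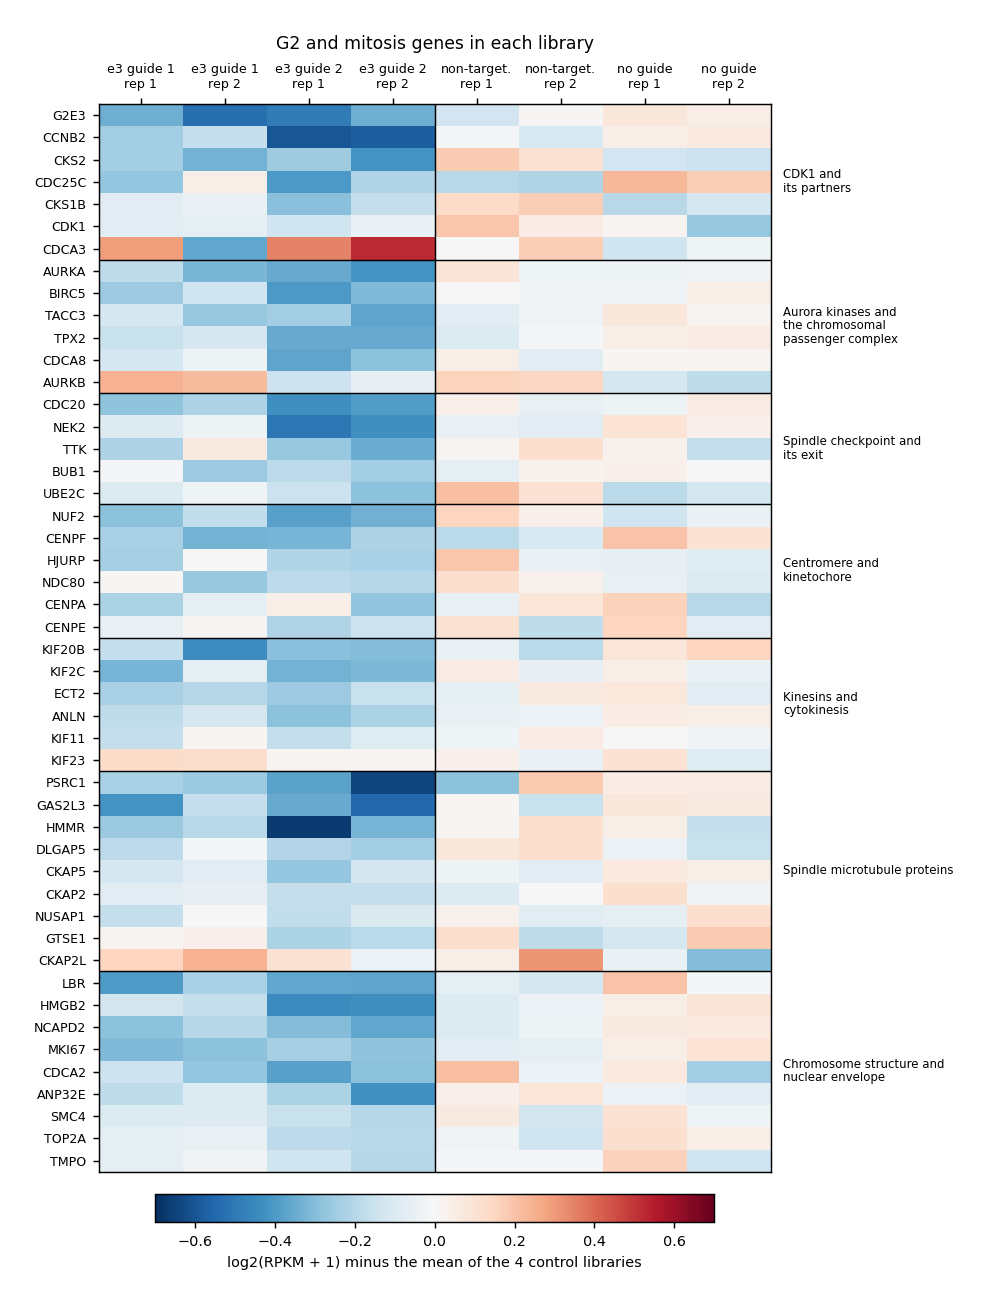
Log2 difference of each gene in each library from the mean of the 4 control libraries, on the log2(RPKM + 1) scale. Rows are the 48 genes, ordered by role, columns are libraries, with e3 guide 1 and guide 2 left of the non-targeting and no guide libraries. Blue cells are lower and red cells higher, and blue fills most of the e3 columns, with medians over the genes of -0.17 and -0.11 for guide 1 and -0.26 and -0.28 for guide 2.

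CDK1 and other regulators of G2 made up 7 genes, of which G2E3 was called lower and the median log2 change was -0.21. G2E3, an E3 ubiquitin ligase gene named for its peak in G2, had 4.53 and 3.85 RPKM with guide 1, 3.98 and 4.53 RPKM with guide 2, 5.38 and 6.04 RPKM with the non-targeting guide and 6.40 and 6.24 RPKM without a guide. The groups did not overlap, and the means were 4.22 ± 0.358 RPKM in e3 libraries and 6.01 ± 0.450 RPKM in controls (SD, n = 4 each), with a log2 change of -0.43 ± 0.10 (SE, limma, adjusted p = 0.0449). That call was lost without any 1 of the 8 libraries, with an adjusted p of up to 0.128 (limma). G2E3 was among the weakest genes of the 48, with 136 to 274 reads per library.

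CDK1 itself, the kinase that drives entry into mitosis, had 47.9 and 48.2 RPKM with guide 1, 45.8 and 48.9 RPKM with guide 2, 58.0 and 52.4 RPKM with the non-targeting guide and 51.1 and 41.9 RPKM without a guide. The no guide pair spanned the e3 values, and the log2 change of -0.08 ± 0.09 did not pass (SE, limma, adjusted p = 0.659). CCNB2, the gene of cyclin B2, a partner of CDK1, had 51.6 and 54.6 RPKM with guide 1, 40.1 and 40.6 RPKM with guide 2, 60.8 and 56.9 RPKM with the non-targeting guide and 63.1 and 64.3 RPKM without a guide. Its groups did not overlap, yet the 2 guides lay far apart, and the pooled change of -0.40 ± 0.11 missed the threshold (SE, limma, adjusted p = 0.0625).

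CKS2, a small subunit that binds CDK1, was the member with the highest RPKM. It had 226 and 213 RPKM with guide 1, 225 and 200 RPKM with guide 2, 303 and 288 RPKM with the non-targeting guide and 243 and 241 RPKM without a guide. Each e3 value was below each control, and the 2 control groups were themselves far apart. CDCA3, which promotes destruction of the CDK1 inhibitor WEE1, had the largest positive change of the 48, at 0.20 ± 0.17, which did not pass (SE, limma, adjusted p = 0.546). Its libraries ran from 14.4 to 27.4 RPKM with the e3 guides and from 16.9 to 21.3 RPKM in controls, on only 28 to 70 reads.

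Among the 6 genes of the Aurora kinases and the chromosomal passenger complex, AURKA and BIRC5 were called lower and the median was -0.25. AURKA, the kinase of spindle poles and centrosome maturation, had 41.8 and 37.8 RPKM with guide 1, 36.9 and 35.4 RPKM with guide 2, 50.5 and 46.5 RPKM with the non-targeting guide and 46.3 and 46.5 RPKM without a guide. All e3 libraries were below all controls, with means of 38.0 ± 2.73 RPKM in e3 libraries and 47.5 ± 2.05 RPKM in controls (SD, n = 4 each) and a log2 change of -0.32 ± 0.07 (SE, limma, adjusted p = 0.0324). BIRC5, the gene of survivin, a passenger subunit, had 43.8 and 47.4 RPKM with guide 1, 39.4 and 42.1 RPKM with guide 2, 52.3 and 51.7 RPKM with the non-targeting guide and 51.6 and 53.9 RPKM without a guide. It too had no overlap, and its log2 change was -0.28 ± 0.07 (SE, limma, adjusted p = 0.0465).

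AURKB, the kinase of the passenger complex that works at centromeres and the spindle midzone, was not called. It had 90.0 and 88.6 RPKM with guide 1, 68.6 and 72.9 RPKM with guide 2, 84.8 and 83.9 RPKM with the non-targeting guide and 69.5 and 67.0 RPKM without a guide. The guide 1 and non-targeting libraries were high, the guide 2 and no guide libraries low, and the pooled log2 change was 0.07 (limma, adjusted p = 0.788). Of the others in this group, TACC3, which steadies spindle microtubules, lay just outside the threshold at -0.25 (limma, adjusted p = 0.0557).

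In the 5 genes of the spindle checkpoint and the exit from it, CDC20 was called lower and the median was -0.19. CDC20, the activator of the anaphase-promoting complex, had 83.6 and 87.5 RPKM with guide 1, 75.1 and 77.4 RPKM with guide 2, 104 and 97.9 RPKM with the non-targeting guide and 99.1 and 106 RPKM without a guide. Its highest e3 library lay well under its lowest control, with means of 80.9 ± 5.65 RPKM in e3 libraries and 102 ± 3.85 RPKM in controls (SD, n = 4 each). The log2 change was -0.33 ± 0.06 (SE, limma, adjusted p = 0.0224), with the smallest p of the 48. A row named as a CDC20 pseudogene was present at up to 7.29 RPKM, and in all 6 of the 48 genes had such rows, so reads could be split between copies. The other such rows reached 1.95 RPKM for CKS1B and 0.421 RPKM for UBE2C, and those of TMPO, DLGAP5 and NEK2 were at 0 RPKM.

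The 6 centromere and kinetochore genes had no call, with a median of -0.16. NUF2, an outer kinetochore subunit that helps capture microtubules, came nearest, with 32.8 and 35.5 RPKM with guide 1, 30.7 and 31.7 RPKM with guide 2, 44.6 and 41.3 RPKM with the non-targeting guide and 36.5 and 38.9 RPKM without a guide. Its e3 libraries were all below its controls, but the change of -0.29 missed the threshold (limma, adjusted p = 0.0634). The 6 kinesin and cytokinesis genes likewise had no call, with a median of -0.21. ANLN, an actin binding protein of the cleavage furrow, had 60.9 and 63.6 RPKM with guide 1, 56.4 and 59.0 RPKM with guide 2, 66.6 and 67.0 RPKM with the non-targeting guide and 71.7 and 71.0 RPKM without a guide. There was no overlap, and the change was -0.20 (limma, adjusted p = 0.0839). KIF23, a kinesin of the central spindle, was 1 of the 4 genes with a positive change, at 0.07, with AURKB, CDCA3 and the spindle gene CKAP2L (0.11), and none of the 4 passed.

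The 9 spindle microtubule genes had no call either, with a median of -0.15. HMMR, a microtubule and hyaluronan binding protein, had 20.7 and 21.7 RPKM with guide 1, 15.3 and 19.8 RPKM with guide 2, 25.2 and 27.1 RPKM with the non-targeting guide and 25.7 and 22.3 RPKM without a guide. The e3 values were all below the controls, with the first guide 2 library lowest, and the change was -0.36 (limma, adjusted p = 0.0950). GAS2L3, which links actin and microtubules, was the member with the lowest RPKM, at 3.35 to 4.70 RPKM in e3 libraries and 4.71 to 5.73 RPKM in controls.

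Among the 9 genes of chromosome structure and the nuclear envelope, MKI67 and NCAPD2 were called lower and the median was -0.27. MKI67, whose protein Ki-67 coats mitotic chromosomes and is the clinical marker of proliferation, had 67.0 and 68.2 RPKM with guide 1, 71.0 and 68.4 RPKM with guide 2, 79.1 and 80.0 RPKM with the non-targeting guide and 86.0 and 89.1 RPKM without a guide. Every e3 library was below every control, with means of 68.6 ± 1.66 RPKM in e3 libraries and 83.5 ± 4.81 RPKM in controls (SD, n = 4 each) and a log2 change of -0.28 ± 0.06 (SE, limma, adjusted p = 0.0305). NCAPD2, a condensin I subunit, had 54.2 and 57.7 RPKM with guide 1, 53.7 and 51.4 RPKM with guide 2, 62.0 and 64.8 RPKM with the non-targeting guide and 69.3 and 69.8 RPKM without a guide. Again no value overlapped, and the log2 change was -0.29 ± 0.06 (SE, limma, adjusted p = 0.0351).

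TOP2A, the enzyme that untangles sister DNA, had 184 and 186 RPKM with guide 1, 170 and 168 RPKM with guide 2, 190 and 175 RPKM with the non-targeting guide and 209 and 199 RPKM without a guide. Guide 1 overlapped the non-targeting libraries, and the change of -0.12 did not pass (limma, adjusted p = 0.312). LBR, the lamin B receptor of the nuclear envelope, lay just outside the threshold at -0.34 (limma, adjusted p = 0.0528).

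**Figure D3:**
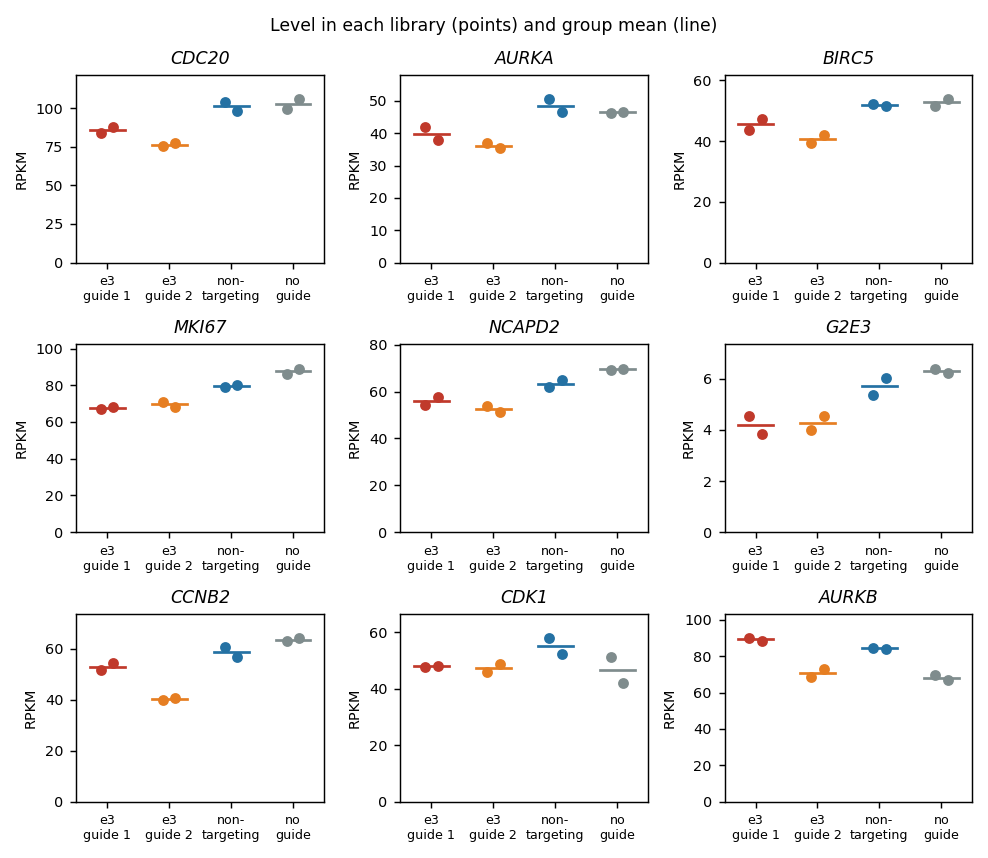
RPKM in each library of selected genes, with e3 guide 1, e3 guide 2, non-targeting guide and no guide from left to right. Points are libraries and lines are means of the 2 libraries. The e3 points of CDC20, MKI67, AURKA, NCAPD2, G2E3 and BIRC5 all sit below the control points, while those of AURKB and CDK1 overlap them.

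When only the non-targeting libraries, which also received a guide, served as controls, 4 of the 48 genes fell and none rose, beside 3.54% called lower and 3.30% higher over all tested genes, and 5.14% lower among the 9318 genes at these levels. They were CKS2 (-0.45 ± 0.06, adjusted p = 0.00843), NUF2 (-0.39, adjusted p = 0.0285), CDC20 (-0.32, adjusted p = 0.0410) and AURKA (-0.35, adjusted p = 0.0433, limma throughout). MKI67 missed the threshold here at -0.21 (limma, adjusted p = 0.0543). The change was negative for 46 of 48 (95.8%), and for 6988 of all 13979 tested genes, with a median of -0.21 against 0.00, and every e3 library lay below both non-targeting libraries in 27 genes (56.2%), against 16.3% of tested genes. Of the 48, 24 passed an unadjusted p under 0.05, beside 3063 of all 13979 tested genes. The count of 4 was 0 without non-targeting replicate 1 or 2 (14 and 13 at an unadjusted p under 0.05), 1 without either guide 2 library, 2 without replicate 1 of guide 1, 1 with the replicate block and 7 with an estimated correlation.

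Set against the libraries without a guide, which stood apart on the first component, 13 of the 48 fell and none rose, beside 8.03% called lower and 8.68% higher over all tested genes, and 10.2% lower among the 9318 genes at these levels. The smallest p-values belonged to MKI67 (-0.35, adjusted p = 0.00436), NCAPD2 (-0.35, adjusted p = 0.00816), CENPF, a kinetochore and nuclear matrix protein (-0.42, adjusted p = 0.0100), LBR (-0.43, adjusted p = 0.0155) and CDC20 (-0.34, adjusted p = 0.0181, limma throughout). The median was -0.20, against -0.03 for all tested genes. Only CDC20 and AURKA, 2 genes, were called lower against both control groups. The count of 13 was 1 and 2 without replicates 1 and 2 of no guide, 6 and 8 without replicates 1 and 2 of guide 2, and 7 with the replicate block. These comparisons share the e3 libraries, and both share control libraries with the pooled one.

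Each guide was then set against the 4 controls in a model with 4 groups. With guide 2, 22 of the 48 genes fell and none rose, beside 7.62% called lower and 6.85% higher over all tested genes. Among the 9318 genes at these levels, 10.6% were called lower. Of the 48, 37 passed an unadjusted p under 0.05, beside 4018 of all 13979 tested genes. With guide 1, 4 fell and 1 rose, beside 4.03% called lower and 4.96% higher over all tested genes. At these levels, 5.48% were called lower. Of the 48, 18 passed an unadjusted p under 0.05, beside 3413 of all 13979 tested genes. The medians were -0.26 with guide 2 and -0.13 with guide 1. CDC20, CKS2, MKI67 and NCAPD2 were the 4 genes called lower with both guides, which share their controls. For guide 2 the count was 12 and 9 without its replicates 1 and 2. For guide 1 the count of 5 called genes was 0 and 1 without its replicates 1 and 2 (14 at an unadjusted p under 0.05 for the 0), 1 without replicate 1 and 3 without replicate 2 of the non-targeting guide, and 2 without replicate 2 of no guide.

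The genes with the smallest p for guide 2 were CCNB2 (-0.59 ± 0.05, adjusted p = 0.000341), HMGB2, a chromatin protein that bends DNA (-0.44 ± 0.04, adjusted p = 0.000370), TPX2, the spindle protein that activates Aurora A (-0.35, adjusted p = 0.00102), CDC20 (-0.41, adjusted p = 0.00159) and NEK2, a kinase of centrosome separation (-0.47, adjusted p = 0.00381, limma throughout). HMGB2 had 114 and 111 RPKM with guide 1, 91.3 and 92.1 RPKM with guide 2, 117 and 121 RPKM with the non-targeting guide and 128 and 133 RPKM without a guide. NEK2 had 19.4 and 20.2 RPKM with guide 1, 14.3 and 15.1 RPKM with guide 2, 19.9 and 19.6 RPKM with the non-targeting guide and 22.2 and 21.2 RPKM without a guide. In both genes the guide 2 libraries were lowest, and in NEK2 the guide 1 values spanned the non-targeting values. By role, those called lower with guide 2 were 5 of 6 genes of the Aurora and passenger group and 6 of 9 of chromosome structure. Of the checkpoint 3 of 5 were called lower, and 3 of 7 of CDK1 and other G2 regulators. So were 2 of 6 kinesin and cytokinesis genes, 2 of 9 spindle microtubule genes and 1 of 6 kinetochore genes. Over all tested genes the share was 7.62%, and 10.6% at these levels.

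With guide 1, the called genes were MKI67 (-0.30, adjusted p = 0.00621), CKS2 (-0.28, adjusted p = 0.0158), CDC20 (-0.25, adjusted p = 0.0231) and NCAPD2 (-0.24, adjusted p = 0.0263), all lower, and AURKB, which was higher by 0.23 ± 0.05 (adjusted p = 0.0209, limma throughout). AURKB with guide 2 was -0.10 against controls (limma, adjusted p = 0.198). Against the non-targeting libraries alone, the pooled e3 libraries, guide 2 included, gave AURKB a change of -0.09 (limma, adjusted p = 0.736). Its means were 89.3 RPKM with guide 1, 70.7 RPKM with guide 2, 84.4 RPKM with the non-targeting guide and 68.3 RPKM without a guide. Guide 1 was not tested against the non-targeting libraries alone.

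The difference between guides was tested directly, and none of the 48 genes passed in guide 2 against guide 1, beside 0.0286% of all tested genes (limma). At an unadjusted p under 0.05, 13 passed, beside 1451 of all 13979 tested genes. The change was negative for 41 of 48 (85.4%), and for 6983 of all 13979 tested genes, with a median of -0.13 against 0.00. Both guide 2 libraries lay below both guide 1 libraries in 29 of the 48 (60.4%), against 20.5% of tested genes, and above them in 2, against 20.9%. Both lay below all 6 other libraries in 23 (47.9%), against 7.78%. CCNB2 (-0.39), HMGB2 (-0.29) and AURKB (-0.33) each had an adjusted p of 0.0875 (limma). MYC too was lower with guide 2, at 36.3 and 36.2 RPKM, against 42.4 and 43.4 RPKM with guide 1. Among the 8 libraries the lowest was a guide 2 library for 34 of the 48 genes, against 25.5% of all tested genes, and the highest was a control for 45 of 48, against 57.4%.

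The control groups were also set against each other. In the non-targeting libraries against those without a guide, 4 of the 48 rose and none fell, beside 6.55% called higher and 5.81% lower over all tested genes, and 8.82% higher among the 9318 genes at these levels. They were AURKB (0.30 ± 0.05, adjusted p = 0.00962), UBE2C, the ubiquitin-conjugating enzyme of the anaphase-promoting complex (0.31, adjusted p = 0.0162), CKS1B, which binds CDK1 and SCF-SKP2 (0.31, adjusted p = 0.0173), and CKS2 (0.29, adjusted p = 0.0204, limma throughout). UBE2C had 176 and 163 RPKM with the non-targeting guide and 133 and 139 RPKM without a guide. The e3 libraries had 142, 148, 137 and 125 RPKM, near the no guide level. The change was negative in 30 of 48, with a median of -0.03, against -0.01 over all tested genes. Both non-targeting libraries lay above both no guide libraries in 12 of the 48, against 27.2% of tested genes, and below them in 16, against 29.5%. The count of 4 was 0 and 1 without replicates 1 and 2 of the non-targeting guide (7 at an unadjusted p under 0.05 for the 0), and 1 and 2 without those of no guide.

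**Figure D4:**
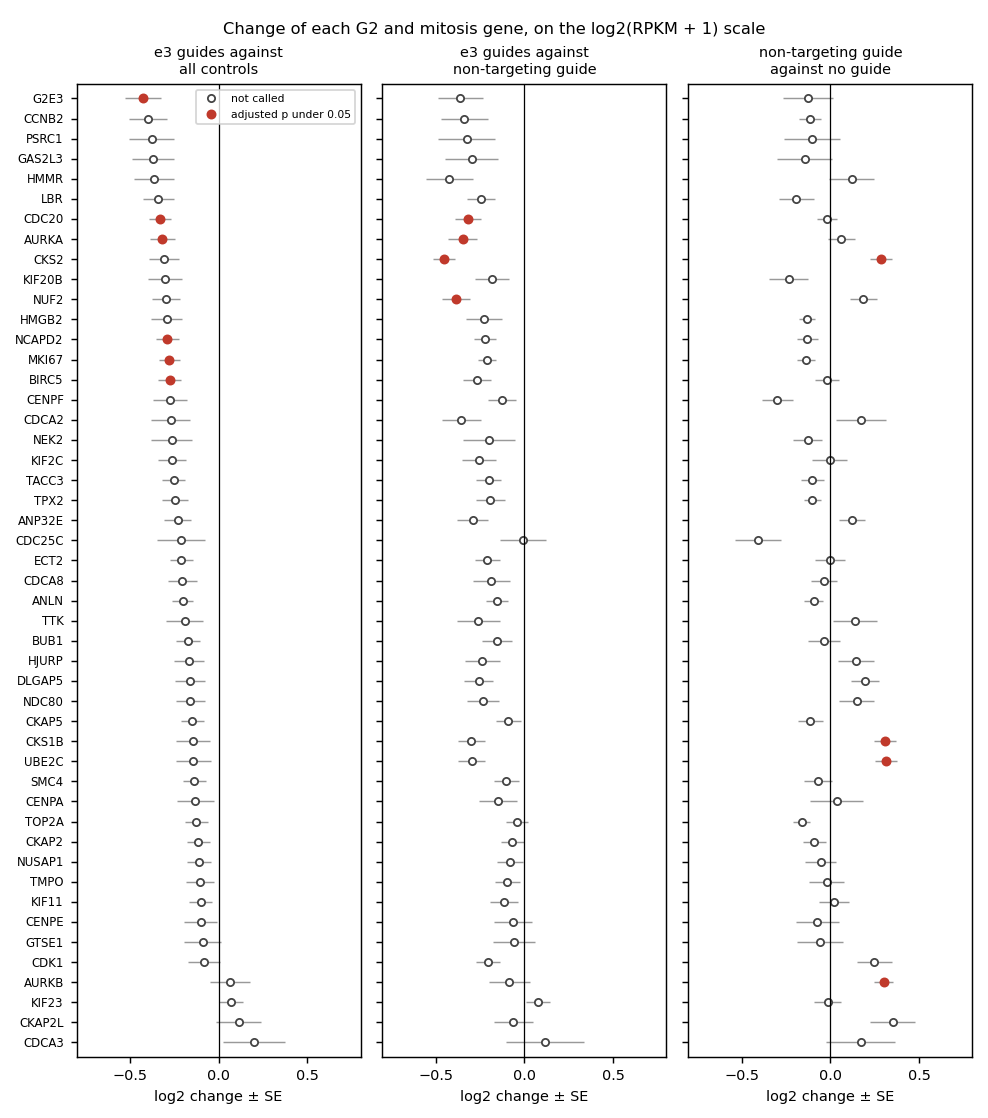
Log2 change of each of the 48 genes on the log2(RPKM + 1) scale (x axis, with bars of ± 1 SE) for e3 libraries against all controls, e3 libraries against non-targeting ones, and non-targeting libraries against those without a guide, from left to right. Each row is a gene, and filled points passed the test. In the left panel 44 of 48 points lie below 0 and 6 are filled, in the middle panel 46 lie below 0 and 4 are filled, and in the right panel 4 filled points lie above 0.

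Other genes of the same processes were counted from lists of genes outside the 48. Of 58 other G2 and mitosis genes tested, 4 fell with the e3 guides against the pooled controls and none rose, beside 2.58% lower and 2.63% higher over all tested genes, and the median was -0.08. They were CCNB1, the gene of cyclin B1 (-0.42, adjusted p = 0.00999), PLK1, the polo kinase of mitotic entry (-0.45, adjusted p = 0.0210), DEPDC1 (-0.47, adjusted p = 0.0166) and ASPM, a spindle pole protein (-0.33, adjusted p = 0.0490, limma throughout). CCNB1 had 91.0 and 89.3 RPKM with guide 1, 83.4 and 77.1 RPKM with guide 2, 112 and 117 RPKM with the non-targeting guide and 118 and 110 RPKM without a guide, so its e3 and control libraries did not overlap. When only the non-targeting libraries served as controls, 5 of the 58 fell and none rose, beside 3.54% lower and 3.30% higher over all tested genes. They were CCNB1 (-0.43), PLK1 (-0.54), DEPDC1 (-0.49), the securin gene PTTG1 (-0.36) and the checkpoint gene MAD2L1 (-0.46), while ASPM did not pass (-0.27, limma throughout). When only the libraries without a guide served, 8 fell and 1 rose, beside 8.03% lower and 8.68% higher over all tested genes. The 6 with the smallest p among those that fell were SKA2 (-0.37), CCNB1 (-0.42), KIF18A (-0.49), DEPDC1 (-0.46), RACGAP1 (-0.28) and ASPM (-0.38), and the gene that rose was SKA1, of the same kinetochore complex as SKA2 (0.61, limma, adjusted p = 0.0242). CCNB1, PLK1 and DEPDC1 were called lower against each control group. PLK1 was itself called higher in the non-targeting libraries against those without a guide (0.19, limma, adjusted p = 0.0459). KIF18A was also called lower in the non-targeting libraries against those without a guide (-0.59, limma, adjusted p = 0.00719).

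Against the pooled controls, none of the 16 condensin and cohesin genes and none of the 16 genes of the anaphase-promoting complex passed (limma). The medians were -0.01 and -0.06, and 1 and 4 genes passed an unadjusted p under 0.05, beside 3102 of all 13979 tested genes. For condensin and cohesin, none passed against the non-targeting guide (1 at an unadjusted p under 0.05, beside 3063 of all tested genes). STAG2 (-0.43) and RAD21 (-0.27) of cohesin were lower against no guide. For the anaphase-promoting complex, ANAPC7 (-0.39, adjusted p = 0.0390) and the ubiquitin-conjugating enzyme UBE2S (-0.43, adjusted p = 0.0408) were lower against the non-targeting guide, and ANAPC1 (-0.44) and ANAPC10 (-0.68) were lower against no guide (limma throughout). Over all tested genes, 3.54% were called lower against the non-targeting guide and 8.03% against no guide. Against the pooled controls, 2.58% were called lower and 2.63% higher. STAG2 (-0.50) and ANAPC10 (-0.80) were themselves called lower in the non-targeting libraries against those without a guide. Of 14 regulators of mitotic gene transcription, only MYBL2, the B-Myb subunit of MMB, passed against the pooled controls, and it was higher, with 70.4 and 71.4 RPKM with guide 1, 67.6 and 65.7 RPKM with guide 2, 53.6 and 56.6 RPKM with the non-targeting guide and 35.1 and 39.9 RPKM without a guide (0.59, limma, adjusted p = 0.0428). Its change was 0.31 against the non-targeting guide (adjusted p = 0.0238) and 0.86 against no guide (adjusted p = 0.000219), and it was itself higher in the non-targeting libraries against those without a guide (0.54, adjusted p = 0.00277, limma throughout). FOXM1, the forkhead activator of these promoters, was at -0.14 (limma, adjusted p = 0.400).

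The 43 S phase genes were counted in the same way. None passed in e3 libraries against the pooled controls (limma). At an unadjusted p under 0.05, 5 of the 43 passed, beside 3102 of all 13979 tested genes. The median log2 change was 0.09, opposite in sign to that of the 48. By library, the S phase median relative to the control mean was 0.03 and 0.03 with guide 1, 0.09 and 0.09 with guide 2, -0.05 and -0.06 for non-targeting libraries, and 0.07 and 0.04 without a guide. The values without a guide lay within the range of the e3 values. Compared with the non-targeting libraries, CCNE2, the gene of cyclin E2 (0.74), and BRIP1, a DNA repair helicase (0.64), were higher with adjusted p of 0.0337 and 0.0227 and none was lower (limma). Over all tested genes, 3.30% were called higher and 3.54% lower in that comparison. Compared with the libraries without a guide, the calls included RRM2 (0.36), a ribonucleotide reductase subunit, which was higher, and MCM2 (-0.42), a helicase subunit, and UNG (-0.49), a DNA repair glycosylase, which were lower (limma). There, 8.68% of all tested genes were called higher and 8.03% lower. MCM2 (-0.37) and UNG (-0.53) were also called lower, and RRM2 (0.31) higher, in the non-targeting libraries against those without a guide. CCNE2 was also called lower in non-targeting libraries against no guide (log2 change -0.89, limma, adjusted p = 0.0108).

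**Figure D5:**
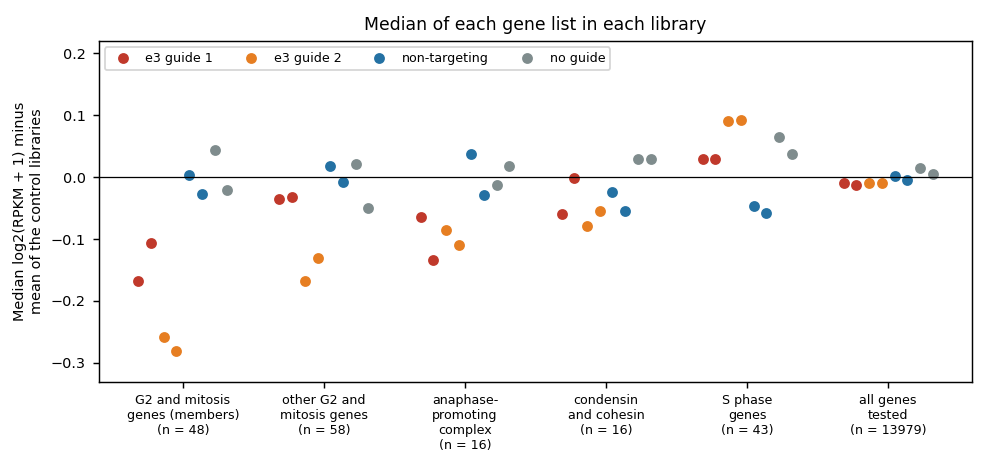
Median log2 difference from the control mean over each list of genes, by library. The 48 genes and the other G2 and mitosis genes lie below 0 in all 4 e3 libraries, and the S phase genes at 0.03 to 0.09.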

How the data were processed

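The deposited table held RPKM, per the file headers, for 8 poly(A)-selected libraries. The submitters' processing notes list Cufflinks and hg19 without a role or version, and the aligner, counting and strand setting are not given in the sources used here. Values of 13979 of 13979 tested genes (100%) were whole multiples of 1 read within 0.03 reads, from which depth was inferred. No count test was run.

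Genes averaging 1 RPKM or more were tested in limma 3.58.1 (R 4.3.3) on a log2(RPKM + 1) scale, with a variance trend, two-sided, and Benjamini-Hochberg adjustment. Fold changes are on that scale and understate the change of low genes. Comparisons with the e3 guides pooled used 2 groups, and the other comparisons used 4. Named genes are those called, the one with the smallest p in each role group, 5 chosen by function, up to 5 called genes per direction elsewhere, the members highest or lowest in level or change (CKS2, GAS2L3, CDCA3), and up to 6 called genes per list. LBR, TACC3, KIF23, CKAP2L and FOXM1 were added after their values were seen. The members and lists were chosen with earlier results of these data known. Same-numbered replicates did not deviate together (correlations -0.022 to 0.014). Promoters came from RefSeq (GRCh38.p14) and no hg19 coordinates are given. Scripts were tested on simulated data. The result of 1 S phase gene is not reported here.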

Additional observations from a re-analysis of the deposited data

Results flagged for a closer look

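In 4 of 96 groups of 4 libraries tested for a value far from the rest, 1 library stood apart by Dixon's criterion, and chance flags about 1 in 20 such groups. HJURP, the chaperone of the centromeric histone CENP-A, had 46.4 RPKM in replicate 2 of guide 1, against 39.2 to 39.8 RPKM in the other e3 libraries. HJURP also had 53.0 RPKM in replicate 1 of the non-targeting guide, against 43.4 to 44.6 RPKM in the other controls. AURKA had 50.5 RPKM in that same non-targeting library, against 46.3 to 46.5 RPKM in the other controls. KIF2C, a microtubule depolymerising kinesin, had 30.3 RPKM in replicate 2 of guide 1, against 25.1 to 25.3 RPKM in the other e3 libraries.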

How the results depend on the processing

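Counts of called genes moved more than medians. With no filter on low values, all 4 genes called against the non-targeting guide lost their call. The 1 gene called in that run was another member. In e3 guides against controls the count of 6 became 3 with no filter on low values, 1 with the replicate block, 0 with an estimated correlation (22 at an unadjusted p under 0.05), 0 on group means (10 at an unadjusted p under 0.05) and 22 in the model with 4 groups, and ran from 0 to 4 without single libraries. Against the non-targeting guide, 4 became 1 with no filter, 1 with the block and 7 with an estimated correlation, and ran from 0 to 5. Against no guide, 13 became 6 with no filter, 8 with median-ratio size factors and 7 with the block, and ran from 1 to 16. Guide 1 ran from 0 to 5, guide 2 from 9 to 23 and non-targeting against no guide from 0 to 4. Medians without single libraries were -0.25 to -0.18, -0.22 to -0.19 and -0.25 to -0.18 for the 3 pooled comparisons, -0.17 to -0.11 for guide 1, -0.28 to -0.25 for guide 2, -0.14 to -0.10 for guide 2 against guide 1 and -0.0645 to -0.00590 between controls. The control median reversed to 0.000714 with median-ratio size factors. Guide 2 against guide 1 stayed at 0 in every alternative run. A library left alone in its group was assumed to vary like the other groups. Replicate numbers do not pair the libraries. The cause was not tested in any of these. Depth limits CDCA3, with 28 to 70 reads.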
